A study of Mus musculus with 30 samples.

Results

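The 10 genes named for tau and its partners were followed across sorted mouse brain cells: the tau gene Mapt, the microtubule-associated proteins Map2 and Map1b, and Gsk3a, Gsk3b, Cdk5, Cdk5r1, Mark1, Dyrk1a and Fyn, which encode kinases of tau or a kinase activator. They were found by symbol among the 36528 gene identifiers of the files, and each had a count in the table. RNA was sequenced in 30 libraries from the brains of mice at an age of 11.5 months, which were PS2APP transgenic or non-transgenic (non-Tg) littermates. Cells had been sorted on NeuN for neurons, on Gfap for astrocytes or on Cd11b for myeloid cells, which gave 6 groups of 5 libraries. In PS2APP mice, human amyloid precursor protein is expressed from a Thy1 promoter and human presenilin 2 from a prion promoter, and amyloid plaques form with age. They carry no tau transgene, so Mapt reads come from the mouse gene. The labels do not say whether animals were pooled or which libraries came from 1 animal, and p-values reflect only how much libraries of a group vary.

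Tau binds along microtubules, the hollow tracks of tubulin that carry cargo through axons, and it comes off them when it is phosphorylated. Glycogen synthase kinase 3, the Cdk5 kinase with its activator p35 and the microtubule affinity-regulating kinases phosphorylate tau at serine or threonine, while Fyn phosphorylates a tyrosine and is bound by tau. Hyperphosphorylated tau is the material of neurofibrillary tangles in Alzheimer's disease. Counts per gene, as used here, measure RNA and show neither phosphorylation nor the splice forms of Mapt.

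Total counts per library lay between 2015535 and 6749681, so 3 counts corresponded to 0.44 to 1.49 CPM, the count scaled to a common library size. CPM are given after TMM scaling over all 30 libraries. PS2APP myeloid libraries were shallower than non-Tg ones, with 2473581 ± 413655 against 4704683 ± 1051807 counts (SD, n = 5 each; p = 0.00794 by a two-sided exact permutation test, 0.0873 after adjustment over 33 tests of marker sums, depth and mitochondrial share). The summed markers of each sorted type were highest in its own libraries, and no marker was at 0 in the mean of any group for the neuron, astrocyte, myeloid and oligodendrocyte lists. In non-Tg mice the sum of 13 neuron markers was 2261 CPM in neuron, 539 CPM in astrocyte and 259.7 CPM in myeloid libraries. Neuron markers were thus detected in both glial sorts. The PS2APP astrocyte library of replicate 3 stood apart, with a neuron marker sum of 1646 CPM against 582 to 737 CPM in the other 4 of its group. Astrocyte libraries carry sample identifiers of another number range than the others and gave the least RNA per the labels, which cannot be told apart from cell type.

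Promoters are printed for Map1b and Mark1, which were highest in neuron libraries, and for Gsk3b, which differed little between populations. Each run is the 250 bases before an annotated start, 5′ to 3′ on the gene's strand, from RefSeq (GRCm38.p6), and 7 of the 10 genes had an entry. Capitals mark GC boxes (GGGCGG or its complement CCGCCC) and CCAAT boxes (CCAAT or ATTGG).
Map1b, minus strand, chr13:99516603-99516852: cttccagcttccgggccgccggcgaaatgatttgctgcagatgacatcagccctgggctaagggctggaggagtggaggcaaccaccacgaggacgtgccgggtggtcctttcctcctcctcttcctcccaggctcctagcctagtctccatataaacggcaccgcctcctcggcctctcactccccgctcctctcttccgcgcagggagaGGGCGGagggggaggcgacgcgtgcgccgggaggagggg
Mark1, minus strand, chr1:184999955-185000204: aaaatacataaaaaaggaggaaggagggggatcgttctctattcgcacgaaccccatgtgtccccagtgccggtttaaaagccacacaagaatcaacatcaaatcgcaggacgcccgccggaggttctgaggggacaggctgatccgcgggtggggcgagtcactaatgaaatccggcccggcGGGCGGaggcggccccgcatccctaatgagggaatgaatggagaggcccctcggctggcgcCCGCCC
Gsk3b, plus strand, chr16:38088751-38089000: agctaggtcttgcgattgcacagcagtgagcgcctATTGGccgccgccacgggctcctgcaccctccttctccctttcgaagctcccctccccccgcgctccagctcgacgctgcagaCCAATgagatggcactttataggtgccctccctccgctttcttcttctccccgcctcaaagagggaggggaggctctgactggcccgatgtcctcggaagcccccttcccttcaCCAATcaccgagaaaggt
The Map1b window held 1 GC box and 1 TATAAA, the Mark1 window 2 GC boxes, and the Gsk3b window 3 CCAAT boxes and 1 TATAAA, counted on both strands. Of 32851 mouse promoter windows of this length, 32.7% held a GC box, 33.8% a CCAAT box and 12.4% a TATAAA. GC content was 66.4%, 60.0% and 62.0% in the 3 windows, against a median of 52.4% over all, and CpG dinucleotides numbered 19, 20 and 15, against a median of 6. Mark1 had another annotated start, whose window (chr1:184999550-184999799, not printed) held 1 GC box, 52 CpG dinucleotides and 85.2% GC. Such matches describe the letters only.

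The first comparison asked where these genes are expressed. In non-Tg mice, Map2, Map1b, Mark1 and Cdk5r1 were higher in neuron than in astrocyte libraries, by 0.89 to 2.51 on the log2 scale, while Fyn, Gsk3a, Dyrk1a and Gsk3b were lower. Mapt itself did not pass the test between neuron and astrocyte libraries, and both stood far above myeloid libraries. Cdk5r1, which encodes p35, was lowest in astrocyte libraries and highest in myeloid ones. Cdk5 did not pass the test in any pair of populations. By edgeR's quasi-likelihood test at an adjusted p of 0.05, 8 of 10 genes differed between neuron and astrocyte libraries, against 51.7% of 18101 genes tested, with 4 higher in neurons (24.8% of all genes) and 4 lower (26.9%). Of the 10, 9 differed between neuron and myeloid libraries, against 67.9% of all genes, with 5 higher in neurons (33.7%) and 4 lower (34.1%). With DESeq2 size factors the neuron to myeloid count was 6, with 5 higher and 1 lower, against 12193 of 18101 genes. The neuron to astrocyte count was then 7, with 4 higher and 3 lower, against 9377 of 18101. Between astrocyte and myeloid libraries 6 differed, against 57.4% of all, with 5 higher in astrocytes (30.7%) and 1 lower (26.8%). In the PS2APP groups the counts were 8, 7 and 7, against 50.4%, 65.5% and 53.3% of all genes. In bulk sorts, fewer cells of a type and less RNA per cell cannot be told apart.

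**Figure D1:**
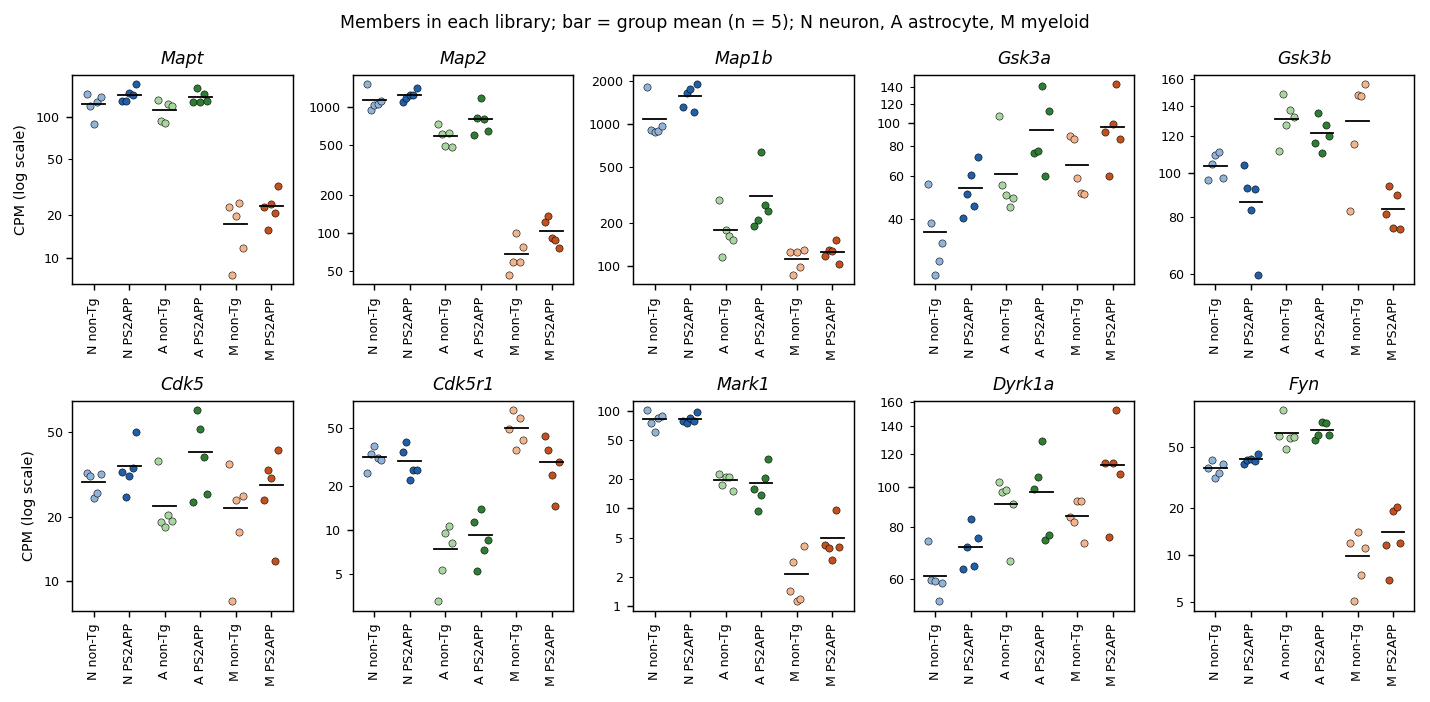
CPM (vertical, log scale) of each gene in each library, by group (horizontal; N neuron, A astrocyte, M myeloid; pale non-Tg, dark PS2APP); points are libraries and bars group means (n = 5). Mapt, Map2 and Fyn fall away in myeloid libraries, Cdk5r1 is lowest in astrocyte libraries, and PS2APP and non-Tg points overlap in each pair.

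Mapt (Entrez 17762, chr11:104229409-104332090, GRCm38.p6) encodes tau. Mapt in neuron libraries stood at 144, 118, 88.2, 126 and 138 CPM in non-Tg and at 128, 129, 147, 142 and 170.2 CPM in PS2APP mice. Mapt in astrocyte libraries stood at 132, 93.5, 89.6, 122 and 119.9 CPM in non-Tg and at 127, 160.2, 127, 145 and 128 CPM in PS2APP mice. Mapt in myeloid libraries stood at 22.9, 7.55, 19.6, 24.5 and 11.8 CPM in non-Tg and at 22.8, 15.8, 23.8, 20.9 and 32.3 CPM in PS2APP mice. Neuron and astrocyte libraries overlapped widely, and each myeloid library lay below each of them. The neuron to astrocyte difference in non-Tg mice was 0.071 ± 0.21 (log2 ± SE; edgeR adjusted p = 0.805; 95% interval -0.36 to 0.50). Against myeloid libraries, Mapt was higher by 2.70 ± 0.23 in neuron and by 2.63 ± 0.23 in astrocyte libraries (edgeR adjusted p = 9.76e-13 and 2.52e-12). The non-Tg astrocyte mean was 90.7% of the neuron mean, and the myeloid mean 14.1%.

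Map2 (17756, chr1:66175202-66442583) encodes a relative of tau found in dendrites. Map2 in neuron libraries stood at 1512, 936, 1037, 1059 and 1109 CPM in non-Tg and at 1099, 1176, 1231, 1245 and 1416 CPM in PS2APP mice. Map2 in astrocyte libraries stood at 725, 606, 488, 624 and 481 CPM in non-Tg and at 600.0, 806, 1171, 799 and 644 CPM in PS2APP mice. Map2 in myeloid libraries stood at 46.2, 58.7, 99.9, 58.2 and 76.8 CPM in non-Tg and at 122, 136, 90.9, 88.0 and 76.2 CPM in PS2APP mice. The 3 populations did not overlap in non-Tg mice, with neuron libraries highest, and in PS2APP mice the astrocyte library of replicate 3 reached into the neuron range. Neuron exceeded astrocyte libraries by 0.89 ± 0.19 and astrocyte exceeded myeloid libraries by 3.04 ± 0.20 in non-Tg mice (log2 ± SE; edgeR adjusted p = 0.000132 and 1.7e-15).

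Map1b (17755, chr13:99421464-99516602) encodes a microtubule-associated protein of growing axons, and its promoter is the first of those printed. Map1b in neuron libraries stood at 1798, 896, 872, 886 and 958 CPM in non-Tg and at 1297, 1638, 1759.5, 1209.5 and 1891 CPM in PS2APP mice. Map1b in astrocyte libraries stood at 294, 117, 181, 163 and 153 CPM in non-Tg and at 194, 210.0, 631, 271 and 245 CPM in PS2APP mice. Map1b in myeloid libraries stood at 125, 87.4, 127, 99.2 and 129.9 CPM in non-Tg and at 118, 129.6, 128, 153 and 105 CPM in PS2APP mice. Neuron libraries lay above all glial ones, and the non-Tg neuron library of replicate 1 stood well above the other 4. Neuron exceeded astrocyte libraries by 2.51 ± 0.26 in non-Tg mice (edgeR adjusted p = 2.73e-10). The step from myeloid to astrocyte libraries was small, at 0.60 ± 0.25 (edgeR adjusted p = 0.0383), and did not pass without non-Tg astrocyte replicate 1 (0.42), myeloid replicate 2 (0.52) or myeloid replicate 4 (0.55).

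Mark1 (226778, chr1:184896424-184999954) encodes a microtubule affinity-regulating kinase, which phosphorylates the repeats with which tau grips the microtubule. Mark1 in neuron libraries stood at 101, 75.5, 60.3, 84.0 and 88.9 CPM in non-Tg and at 78.2, 74.0, 83.6, 79.3 and 96.3 CPM in PS2APP mice. Mark1 in astrocyte libraries stood at 22.5, 17.5, 21.0, 20.8 and 14.9 CPM in non-Tg and at 15.9, 9.36, 13.5, 20.4 and 32.2 CPM in PS2APP mice. Mark1 in myeloid libraries stood at 1.43, 2.85, 1.12, 1.19 and 4.13 CPM in non-Tg and at 4.24, 3.96, 2.93, 9.59 and 3.99 CPM in PS2APP mice. The order was neuron, astrocyte, myeloid with no overlap in non-Tg mice, and in PS2APP mice 1 myeloid library lay just above the lowest astrocyte library. Myeloid libraries held 4 to 20 Mark1 counts each in non-Tg and 8 to 17 in PS2APP mice, so their CPM are imprecise. Neuron libraries exceeded astrocyte libraries by 2.01 ± 0.28 and myeloid libraries by 5.08 ± 0.34 (edgeR adjusted p = 1.17e-07 and 1.2e-15), the steepest drop of the 10 genes in that comparison.

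Cdk5r1 (12569, chr11:80477023-80481184) encodes p35, an activator of the Cdk5 kinase. Cdk5r1 in neuron libraries stood at 24.6, 33.2, 37.9, 31.1 and 30.4 CPM in non-Tg and at 34.5, 40.2, 22.2, 25.8 and 25.8 CPM in PS2APP mice. Cdk5r1 in astrocyte libraries stood at 3.28, 5.37, 9.59, 10.7 and 8.13 CPM in non-Tg and at 11.4, 5.24, 13.9, 7.30 and 8.54 CPM in PS2APP mice. Cdk5r1 in myeloid libraries stood at 49.3, 65.9, 35.3, 58.1 and 41.1 CPM in non-Tg and at 44.0, 35.1, 23.8, 14.7 and 29.4 CPM in PS2APP mice. Astrocyte libraries lay below all neuron and myeloid libraries, and non-Tg myeloid libraries ran from the top of the neuron range upward. In non-Tg mice astrocyte minus myeloid was -2.82 ± 0.30 and neuron minus astrocyte 2.01 ± 0.30 (edgeR adjusted p = 3.85e-10 and 4.12e-07). Neuron minus myeloid was -0.81 ± 0.27 (edgeR adjusted p = 0.00991). That last call was absent between the PS2APP groups (-0.13, adjusted p = 0.687) and with DESeq2 size factors (-0.57, adjusted p = 0.0647).

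Cdk5 (12568, chr5:24407597-24423587) encodes the kinase that p35 activates. Cdk5 in neuron libraries stood at 32.1, 31.2, 24.6, 25.8 and 31.7 CPM in non-Tg and at 32.4, 24.9, 31.1, 34.0 and 50.3 CPM in PS2APP mice. Cdk5 in astrocyte libraries stood at 36.5, 18.9, 18.0, 20.5 and 19.1 CPM in non-Tg and at 23.5, 63.3, 51.7, 38.2 and 25.6 CPM in PS2APP mice. Cdk5 in myeloid libraries stood at 35.5, 8.05, 24.1, 17.1 and 25.0 CPM in non-Tg and at 23.9, 33.1, 30.4, 12.4 and 41.4 CPM in PS2APP mice. The 3 populations overlapped in both genotypes. In non-Tg mice neuron minus astrocyte was 0.30 ± 0.31 and neuron minus myeloid 0.28 ± 0.31 (edgeR adjusted p = 0.444 and 0.441), with 95% intervals of -0.33 to 0.93 and -0.36 to 0.91. The kinase and its activator thus differed in pattern: the Cdk5r1 mean in astrocyte libraries was 23.6% of that in neuron libraries, and the Cdk5 mean 77.6%, a contrast between genes that was not itself tested.

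Gsk3a (606496, chr7:25228258-25237851) and Gsk3b (56637, chr16:38089001-38246084) encode the α and β forms of glycogen synthase kinase 3. Gsk3a in neuron libraries stood at 55.5, 38.3, 23.4, 26.8 and 31.9 CPM in non-Tg and at 40.4, 50.6, 60.5, 45.1 and 72.1 CPM in PS2APP mice. Gsk3a in astrocyte libraries stood at 107, 54.9, 50.04, 44.8 and 48.8 CPM in non-Tg and at 74.5, 76.4, 142, 59.9 and 112 CPM in PS2APP mice. Gsk3a in myeloid libraries stood at 87.9, 85.5, 59.1, 51.1 and 50.4 CPM in non-Tg and at 91.0, 60.3, 98.6, 144 and 85.2 CPM in PS2APP mice. Gsk3a was lowest in neuron libraries, with ranges that overlapped. Neuron minus astrocyte was -0.86 ± 0.27 and neuron minus myeloid -1.07 ± 0.27 in non-Tg mice (edgeR adjusted p = 0.00725 and 0.00073), and the first did not pass without non-Tg astrocyte replicate 1 (-0.54, adjusted p = 0.0897). Exons of Gsk3a share 820 of 2900 bases (28.28%) with 9130221H12Rik on the opposite strand, and the sources used here do not say whether counting used strand. That antisense gene went the same way, from 17.7 CPM in non-Tg neuron to 37.5 CPM in non-Tg astrocyte libraries, so reads of the pair cannot be told apart.

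Gsk3b in neuron libraries stood at 96.2, 104, 109, 111 and 97.1 CPM in non-Tg and at 104, 92.6, 83.1, 92.0 and 59.8 CPM in PS2APP mice. Gsk3b in astrocyte libraries stood at 111, 149, 127, 137 and 132 CPM in non-Tg and at 116, 135, 110.3, 127 and 119.9 CPM in PS2APP mice. Gsk3b in myeloid libraries stood at 82.4, 115, 148, 147 and 156 CPM in non-Tg and at 81.4, 93.5, 75.9, 89.2 and 75.5 CPM in PS2APP mice. In non-Tg mice the highest neuron library lay just under the lowest astrocyte library, and myeloid libraries spanned both. The differences were -0.41 ± 0.16 for neuron minus astrocyte and -0.46 ± 0.16 for neuron minus myeloid (edgeR adjusted p = 0.0305 and 0.0121). Neither call held with DESeq2 size factors (-0.34 and -0.22), and the first held in 4 of 10 fits that left out 1 library.

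Dyrk1a (13548, chr16:94569947-94695519) encodes a kinase that primes tau for glycogen synthase kinase 3 and lies in the human Down syndrome region. Dyrk1a in neuron libraries stood at 73.8, 59.7, 59.4, 53.0 and 58.7 CPM in non-Tg and at 63.2, 71.7, 83.4, 64.3 and 75.3 CPM in PS2APP mice. Dyrk1a in astrocyte libraries stood at 102, 97.3, 98.3, 66.2 and 90.6 CPM in non-Tg and at 98.7, 106, 129, 74.5 and 76.5 CPM in PS2APP mice. Dyrk1a in myeloid libraries stood at 84.3, 82.2, 92.4, 92.1 and 73.1 CPM in non-Tg and at 114, 75.7, 114, 152 and 107 CPM in PS2APP mice. Most neuron libraries lay below the glial ones, and astrocyte and myeloid libraries overlapped. In non-Tg mice neuron minus astrocyte was -0.65 ± 0.18 and neuron minus myeloid -0.61 ± 0.18 (edgeR adjusted p = 0.00223 and 0.0026), the second short of the threshold with DESeq2 size factors (-0.38, adjusted p = 0.0564). Astrocyte minus myeloid was 0.035 ± 0.18 (adjusted p = 0.878).

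Fyn (14360, chr10:39369743-39565381) encodes the tyrosine kinase of the Src family that phosphorylates tau and the NMDA receptor. Fyn in neuron libraries stood at 36.5, 40.9, 31.5, 34.0 and 38.4 CPM in non-Tg and at 38.6, 40.8, 41.7, 40.1 and 45.1 CPM in PS2APP mice. Fyn in astrocyte libraries stood at 58.2, 85.5, 47.9, 56.6 and 57.9 CPM in non-Tg and at 55.2, 59.5, 71.8, 70.9 and 59.8 CPM in PS2APP mice. Fyn in myeloid libraries stood at 11.9, 5.03, 14.0, 7.42 and 11.2 CPM in non-Tg and at 11.6, 6.92, 19.1, 20.3 and 11.97 CPM in PS2APP mice. Astrocyte libraries were highest, neuron libraries intermediate and myeloid libraries lowest, with no overlap in either genotype. Neuron minus astrocyte was -0.82 ± 0.23 and neuron minus myeloid 1.75 ± 0.24 in non-Tg mice (edgeR adjusted p = 0.00243 and 7.21e-08). Fyn is also a kinase of oligodendrocytes, whose 10 markers summed to 1038 CPM in non-Tg astrocyte, 845 CPM in non-Tg myeloid and 205 CPM in non-Tg neuron libraries, and their part in the Fyn level was not tested.

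Since neuron markers were detected in the glial sorts, the 10 genes were set beside the 13 neuron markers on 1 scale, the non-Tg glial mean as a percent of the non-Tg neuron mean in CPM. The markers had a median of 21.3% in astrocyte libraries, with the lowest at 6.45%, and of 9.63% in myeloid libraries, from 5.66% to 30.3%. In astrocyte libraries Mapt (90.7%) and Map2 (51.7%) stood above most of these markers, and Nefl, a neurofilament gene, lay between them at 78.9%. Map1b (16.8%), Cdk5r1 (23.6%) and Mark1 (23.6%) lay among the markers. In myeloid libraries Mapt (14.1%), Map2 (6.01%) and Map1b (10.5%) lay within the marker range, and Mark1 (2.62%) lay below it. Cdk5r1 at 159%, Gsk3a at 190.0%, Dyrk1a at 139%, Gsk3b at 125% and Cdk5 at 75.4% stood above every neuron marker there. How much neuron RNA adds to each glial level was not tested.

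**Figure D2:**
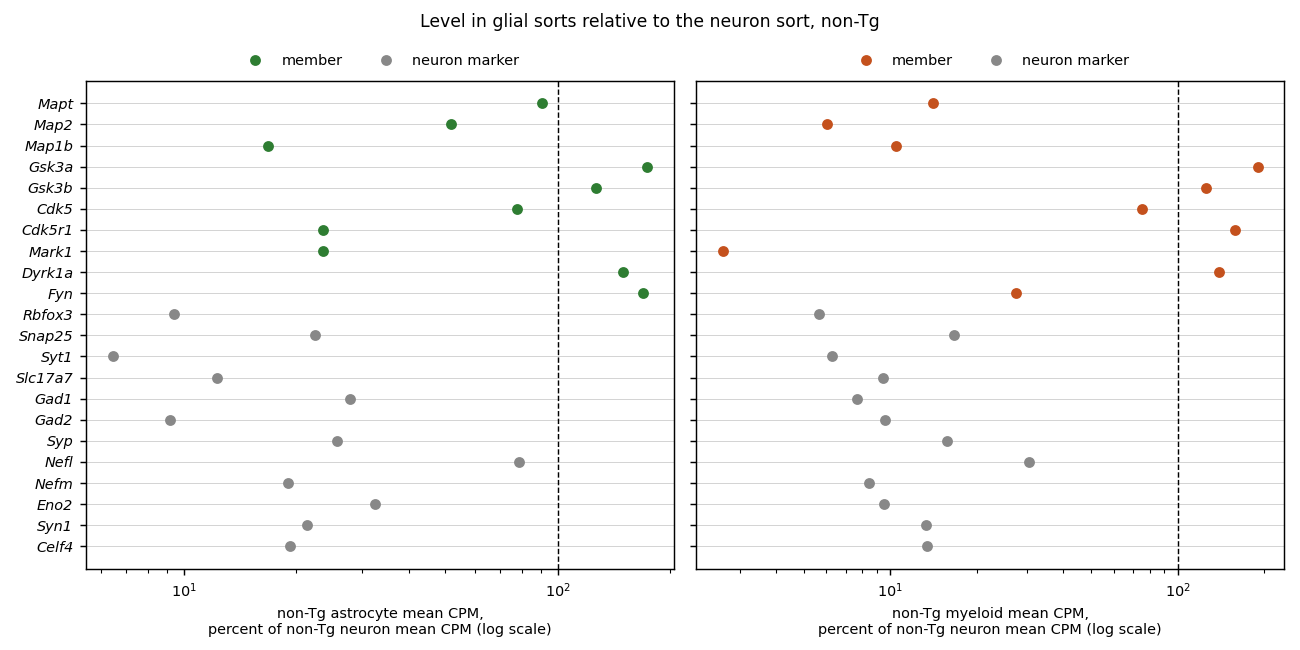
Mean CPM in non-Tg astrocyte (left) and non-Tg myeloid libraries (right) as a percent of the non-Tg neuron mean (horizontal, log scale; dashed line 100%, n = 5 libraries per mean) for the 10 genes (coloured) and 12 of the 13 neuron markers (grey). Mapt sits at 90.7% in astrocyte libraries, right of the 12 markers drawn, and Cdk5r1 moves from 23.6% on the left to 159% on the right.

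Levels of different genes can be compared only per length, in the deposited RPKM. In non-Tg neuron libraries Map2 had the highest mean RPKM, 31.6, followed by Map1b at 27.4, and Mapt followed at 5.80. The kinases and p35 lay between 2.38 for Cdk5r1 and 5.51 for Mark1. Map2 led in non-Tg astrocyte libraries too, at 16.4, and there Gsk3a (8.43) exceeded Mapt (5.29). Non-Tg myeloid libraries were led by Gsk3a (8.68), with Gsk3b at 4.45, Dyrk1a at 4.07 and Cdk5r1 at 3.52, while Mapt, Fyn and Mark1 had mean RPKM of 0.764, 0.726 and 0.136. Gsk3a exceeded Gsk3b in mean RPKM in all 6 groups, though its value may hold antisense reads.

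**Figure D3:**
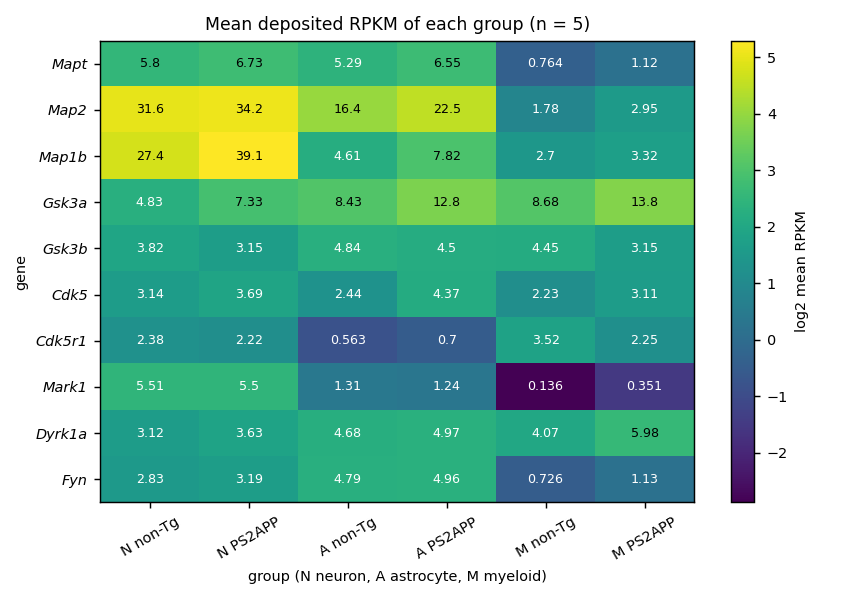
Mean deposited RPKM of each gene (rows) in each group (columns; N neuron, A astrocyte, M myeloid; n = 5 libraries), with colour on a log2 scale. The brightest cells are Map2 and Map1b in neuron groups, from 27.4 to 39.1, and the darkest is Mark1 in non-Tg myeloid libraries at 0.136.

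The second comparison asked whether amyloid-bearing PS2APP mice differed from non-Tg littermates in these genes within each sorted population. None of the 10 passed an adjusted p of 0.05 in edgeR in neuron, astrocyte or myeloid libraries. Of all genes tested, 0.00623%, 0.185% and 3.36% passed there. At an unadjusted p under 0.05 there were 2, 4 and 6 of the 10, against 22.9%, 17.2% and 19.3% of all genes, and DESeq2 called 0, 0 and 1 of the 10, against 0.89%, 2.33% and 7.23% of all. Fitted log2 fold changes were above 0 for 7, 8 and 8 of the 10 (48.1%, 50.6% and 49.8% of all genes), and their median was 0.19, 0.33 and 0.50, against -0.02, 0.0066 and -0.0021 over all genes. No gene's groups were free of overlap, a state that held for 3.13%, 2.99% and 4.8% of all genes.

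For Mapt, non-Tg neuron libraries averaged 123 ± 21.8 CPM and PS2APP ones 143 ± 17.0 CPM (SD, n = 5), with a fitted log2 ratio of 0.21 ± 0.14 (SE; edgeR adjusted p = 0.356), with a 95% interval of -0.094 to 0.51. Its values in astrocyte libraries were 111 ± 18.7 and 138 ± 14.8 CPM (0.33 ± 0.17, adjusted p = 0.321), and in myeloid libraries 17.3 ± 7.31 and 23.1 ± 5.98 CPM (0.51 ± 0.34, adjusted p = 0.432). Leaving out any 1 library kept the sign in all 3 populations, with values from 0.11 to 0.27 in neuron, 0.25 to 0.39 in astrocyte and 0.31 to 0.65 in myeloid libraries.

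Map2 had larger values than Mapt in astrocyte and myeloid libraries, and Map1b had larger ones in neuron and astrocyte libraries. In myeloid libraries Map2 averaged 68.0 ± 20.9 in non-Tg against 103 ± 25.2 CPM in PS2APP mice (0.68 ± 0.21, edgeR adjusted p = 0.075). It passed in DESeq2 (0.70, adjusted p = 0.0355) and in edgeR without non-Tg myeloid replicate 3 (0.86, adjusted p = 0.0431). The neuron marker sum moved with it, at 217 to 319 CPM in non-Tg against 262 to 393 CPM in PS2APP myeloid libraries (p = 0.0238 by the exact permutation test, 0.131 adjusted), and with that sum as a covariate Map2 was 0.37 (adjusted p = 0.731). Map2 was 0.48 ± 0.18 in astrocyte and 0.11 ± 0.14 in neuron libraries (adjusted p = 0.195 and 0.637).

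Map1b in astrocyte libraries was 181 ± 67.0 in non-Tg against 310.0 ± 182 CPM in PS2APP mice (0.79 ± 0.29, edgeR adjusted p = 0.189), and it passed with no filter on low counts (0.77, adjusted p = 0.0214). Much of this rested on the PS2APP library of replicate 3, the one with the neuron marker sum of 1646 CPM. Without it Map1b was 0.37, Map2 0.31 and Gsk3a 0.43. In neuron libraries Map1b was 1082 ± 402 and 1559 ± 295 CPM (0.51 ± 0.21, adjusted p = 0.196). All 5 PS2APP neuron libraries lay above 4 of the 5 non-Tg ones, and non-Tg replicate 1 lay inside the PS2APP range. Without that library the difference was 0.77 (adjusted p = 0.0731). In myeloid libraries Map1b was 0.24 ± 0.18 (adjusted p = 0.476).

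The 2 glycogen synthase kinase 3 genes had fitted values of opposite sign in each population, but in astrocyte libraries both were above 0 with the neuron marker covariate (0.18 and 0.029), and both signs turned with the mitochondrial covariate (-0.51 and 0.18). Gsk3a was 0.60 ± 0.22 in neuron, 0.63 ± 0.27 in astrocyte and 0.61 ± 0.23 in myeloid libraries (log2 ± SE; edgeR adjusted p = 0.187, 0.236 and 0.15). Its antisense neighbour 9130221H12Rik moved with it, from 17.7 to 29.6 CPM in neuron, 37.5 to 60.6 CPM in astrocyte and 37.5 to 55.8 CPM in myeloid libraries. Gsk3b was -0.28 ± 0.14, -0.087 ± 0.16 and -0.55 ± 0.18 (adjusted p = 0.244, 0.813 and 0.0897). In myeloid libraries Gsk3b was 129.6 ± 30.5 in non-Tg against 83.1 ± 8.03 CPM in PS2APP mice, and 4 of 5 non-Tg libraries lay above all PS2APP ones. It passed without the fifth, non-Tg replicate 1 (-0.67, adjusted p = 0.0263), and in the joint fit of all libraries (-0.64, adjusted p = 0.0222).

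Cdk5 in astrocyte libraries had the largest astrocyte value, 22.6 ± 7.82 in non-Tg against 40.4 ± 17.0 CPM in PS2APP mice (0.86 ± 0.29, edgeR adjusted p = 0.17). Its non-Tg replicate 1 lay inside the PS2APP range, and without it the difference was 1.09 (adjusted p = 0.0612). Cdk5 was 0.23 ± 0.18 in neuron and 0.44 ± 0.36 in myeloid libraries. PS2APP neuron replicate 5 lay farthest out on the first principal component of the neuron libraries, and without it Cdk5 was 0.061 there and Gsk3b -0.17. Cdk5r1 in myeloid libraries was 49.9 ± 12.4 in non-Tg against 29.4 ± 11.1 CPM in PS2APP mice (-0.69 ± 0.26, adjusted p = 0.147), with 4 PS2APP libraries below all non-Tg ones. Cdk5r1 was -0.10 ± 0.18 in neuron and 0.34 ± 0.42 in astrocyte libraries, with the signs of kinase and activator opposite in neuron and myeloid libraries.

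Mark1 was nearly level in neuron libraries, 81.9 ± 15.1 in non-Tg against 82.3 ± 8.55 CPM in PS2APP mice (-0.0073 ± 0.14), with a 95% interval of -0.31 to 0.29. In myeloid libraries it had the largest fitted value of the 10, 1.26 ± 0.58 (edgeR adjusted p = 0.234), at 2.14 ± 1.32 and 4.94 ± 2.65 CPM. These means rest on 4 to 20 counts per library in non-Tg and 8 to 17 in the shallower PS2APP myeloid libraries. PS2APP myeloid replicate 4, at 9.59 CPM, stood apart there, and without it the value was 0.86. The same library held the highest Dyrk1a and Gsk3a values of its group. Dyrk1a was 0.50 ± 0.18 in myeloid libraries (adjusted p = 0.134) and 0.34 without it, and Gsk3a was 0.38 without it. Dyrk1a was 0.22 ± 0.12 in neuron and 0.11 ± 0.20 in astrocyte libraries. Fyn was 0.17 ± 0.11, 0.072 ± 0.19 and 0.59 ± 0.41 in neuron, astrocyte and myeloid libraries (adjusted p = 0.354, 0.881 and 0.45).

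**Figure D4:**
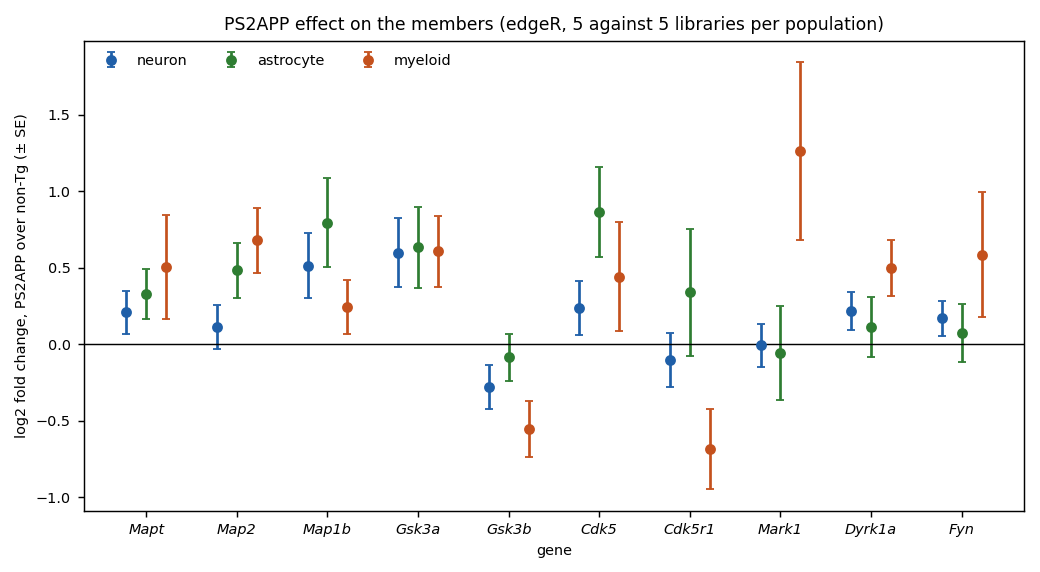
Log2 fold change, PS2APP over non-Tg, of each gene in neuron (blue), astrocyte (green) and myeloid libraries (orange) from edgeR fits of 5 against 5 libraries; bars are ± SE. No gene passed an adjusted p of 0.05, and Gsk3a lies near 0.6 in all 3 while Gsk3b lies below 0 in all 3.

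These values moved with other measures. The mitochondrial share of counts was 3.58 ± 0.87% in non-Tg and 6.91 ± 1.14% in PS2APP astrocyte libraries (SD, n = 5; p = 0.00794 by the exact permutation test, 0.0873 adjusted). The share did not overlap between genotypes, at 2.41 to 4.74% in non-Tg against 5.60 to 8.60% in PS2APP astrocyte libraries. A fit that holds genotype and share thus cannot separate them. With that share as a covariate, 7 of the 10 astrocyte values changed sign, among them Map1b at -0.63, Gsk3a at -0.51 and Map2 at -0.24, while Mapt was 0.31. The neuron marker sum in astrocyte libraries was 453 to 692 CPM in non-Tg against 582 to 1646 CPM in PS2APP mice (exact permutation p = 0.0556, 0.153 adjusted). The oligodendrocyte sum in myeloid libraries was 681 to 1062 CPM in non-Tg against 1112 to 1743 CPM in PS2APP mice, without overlap (exact permutation p = 0.00794, 0.0873 adjusted). That sum was 783 to 1276 CPM in non-Tg against 1010.3 to 2232 CPM in PS2APP astrocyte libraries (exact permutation p = 0.0397, 0.146 adjusted). Markers of the sorted type itself averaged 15403 CPM in non-Tg against 11521 CPM in PS2APP astrocyte libraries (exact permutation p = 0.0476, 0.153 adjusted). In myeloid libraries they averaged 8076 CPM against 6037 CPM (exact permutation p = 0.0159, 0.131 adjusted). Beyond such covariates, their part in the values of the 10 genes was not tested.

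Whether the PS2APP effect differed between populations was tested by interaction terms in 1 fit of all 30 libraries. None of the 10 passed in any of the 3 differences, where 0.0331%, 0.105% and 0.757% of 18101 genes did, and DESeq2 called none of the 10 either, against 0.0884%, 0.47% and 2.11% of all. At an unadjusted p under 0.05 there were 0, 1 and 3 of the 10, against 4.97%, 9.65% and 13% of all genes. The largest differences were between astrocyte and myeloid libraries: Cdk5r1 at 1.08 ± 0.42 (edgeR adjusted p = 0.231), Mark1 at -1.20 ± 0.47 (adjusted p = 0.236) and Gsk3b at 0.53 ± 0.23 (adjusted p = 0.297). For Mapt the 3 differences were -0.089 ± 0.30 (neuron minus astrocyte), -0.22 ± 0.31 (neuron minus myeloid) and -0.13 ± 0.31 (astrocyte minus myeloid), with 95% intervals of -0.69 to 0.52, -0.85 to 0.42 and -0.77 to 0.51. Gsk3b was higher in astrocyte than in myeloid libraries of PS2APP mice (0.49, adjusted p = 0.0113) and at -0.045 ± 0.16 in non-Tg mice (adjusted p = 0.825), but the interaction given above is the test of that contrast.

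Other genes of the pathway were taken from 6 lists. Beyond the 10, 34 tau kinases were listed, and in myeloid libraries 3 rose and 1 fell of the 33 tested, where 1.86% of all genes rose and 1.5% fell (median 0.054 on the log2 scale, against -0.0021 over all genes). Camk2a, the α subunit of calcium/calmodulin kinase II, stood at 157, 142, 165, 138 and 277 CPM in non-Tg and at 409.7, 337, 302, 245 and 342 CPM in PS2APP myeloid libraries. It rose by 0.97 ± 0.19 (edgeR adjusted p = 0.00696) with 1 non-Tg library inside the PS2APP range. Mark4, a relative of Mark1, stood at 54.1, 49.0, 49.0, 33.7 and 48.5 CPM in non-Tg and at 80.6, 95.0, 79.9, 93.1 and 78.4 CPM in PS2APP myeloid libraries. Its groups did not overlap, as held for 4.8% of all myeloid genes, and it rose by 0.95 ± 0.19 (edgeR adjusted p = 0.00878). The Camk2a and Mark4 calls were kept in 10 of 10 fits that left out 1 library. In the joint fit of all libraries Camk2a passed (0.90, adjusted p = 0.0268) and Mark4 did not (0.87, adjusted p = 0.0538). Camk2b, the β subunit, rose by 0.94 ± 0.22 from 29.0 ± 5.18 to 52.2 ± 7.53 CPM (adjusted p = 0.0234), and Csnk1a1, casein kinase 1 alpha, fell by 0.84 ± 0.21 from 101 ± 20.2 to 53.3 ± 14.7 CPM (adjusted p = 0.0287). The groups of Camk2b and of Csnk1a1 did not overlap either, and their calls were kept in 6 and 4 of 10 fits that left out 1 library. In the joint fit Camk2b did not pass (0.85, adjusted p = 0.0781) and Csnk1a1 did (-0.91, adjusted p = 0.0152).

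Camk2a and Camk2b are abundant in neurons. The neuron marker sum averaged 259.7 CPM in non-Tg against 349 CPM in PS2APP myeloid libraries (exact permutation p = 0.0238, 0.131 adjusted). With that sum as a covariate Camk2a was 0.64 (edgeR adjusted p = 0.339), Camk2b 0.60 (0.517), Mark4 0.88 (0.266) and Csnk1a1 -0.83 (0.288). The mitochondrial share was 8.75 ± 2.89% in non-Tg and 13.5 ± 2.97% in PS2APP myeloid libraries (SD, n = 5; exact permutation p = 0.0556, 0.153 adjusted). With it as a covariate none of the 4 passed either, at 0.94 for Camk2a (edgeR adjusted p = 0.155), 0.73 for Camk2b (0.388), 0.71 for Mark4 (0.317) and -0.97 for Csnk1a1 (0.226). With the marker covariate, calls over all myeloid genes went from 412 to 26. What neuron RNA adds to the values of these 4 genes was not tested.

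Over all genes tested in myeloid libraries, 1.86% rose and 1.5% fell. Of 16 tubulin-modifying and severing enzymes tested there, 1 rose (median 0.13). This was Ttll7, which adds glutamate chains to β-tubulin, at 12.9, 9.56, 10.6, 6.83 and 9.91 in non-Tg and 34.7, 46.5, 19.4, 31.6 and 8.71 CPM in PS2APP mice (1.58 ± 0.38, edgeR adjusted p = 0.0272). PS2APP replicate 5 lay within the non-Tg range, and the call was kept in 3 of 10 fits that left out 1 library. Among 20 tested chaperones and sugar or acetyl modifiers of tau (median -0.078), Hsp90ab1, a heat shock protein 90 gene, rose by 0.61 ± 0.16 from 369 ± 61.4 to 530.3 ± 79.7 CPM (adjusted p = 0.0355). Ogt, whose enzyme puts a sugar on serines and threonines of tau, fell by 0.54 ± 0.15 from 328 ± 42.0 to 213 ± 34.4 CPM (adjusted p = 0.0443). The Ogt groups did not overlap, as held for 4.8% of all myeloid genes. These 2 calls were kept in 4 and 2 of 10 such fits. Without PS2APP myeloid replicate 4, Camk2a and Mark4 still passed and the other 5 genes of the lists did not. With the neuron marker sum as a covariate Ttll7 was 1.08 (edgeR adjusted p = 0.538), Hsp90ab1 0.54 (0.466) and Ogt -0.43 (0.468). With the mitochondrial share they were 1.14 (0.421), 0.56 (0.33) and -0.48 (0.415). Hsp90ab1 was also short of the threshold in the joint fit (0.53, adjusted p = 0.134). None passed among 27 phosphatase genes (3 at an unadjusted p under 0.05), 30 other microtubule-associated proteins (7) or 10 tubulins (0). At that p stood 19.3% of all myeloid genes. DESeq2 called 7.23% of all myeloid genes. Its calls included Anp32a among the phosphatase genes and Nav1 and Map7d1 among the microtubule-associated proteins, and it called none of the tubulins. The smallest p values of the latter 2 lists were those of Nav1 (0.73 ± 0.21, adjusted p = 0.061) and Tubb4a (0.64 ± 0.32, 0.27).

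In astrocyte libraries none of the 6 lists held a gene past the threshold in the edgeR fit of those libraries alone. Of 33 other microtubule-associated proteins tested there, 29 had a positive value and 17 an unadjusted p under 0.05 (median 0.42, against 0.0066 over all genes). At that p stood 17.2% of all genes. The count of 17 was 11 without non-Tg astrocyte replicate 3 or 5, 12 without PS2APP replicate 3 and 19 without non-Tg replicate 1, and it was 7 once the neuron marker sum and 2 once the mitochondrial share entered the fit. The smallest p was that of Dst, a cytoskeletal linker, at 2786 ± 153 in non-Tg against 4815 ± 1131 CPM in PS2APP mice (0.81 ± 0.17, edgeR adjusted p = 0.0523). Camk2a led the 32 kinases tested (1.09 ± 0.25, adjusted p = 0.0777; 10 at an unadjusted p under 0.05), with Camk2a in astrocyte libraries at 226, 163, 219, 343 and 146 in non-Tg and 605, 310.3, 679, 308 and 383 CPM in PS2APP mice. Tubb4a, a tubulin of neurons and oligodendrocytes, led the 10 tubulins (1.33 ± 0.34, 0.111). Igbp1 led the 27 phosphatase genes (0.98 ± 0.31, 0.158), Sirt2 the 20 tubulin-modifying enzymes (0.51 ± 0.21, 0.226) and Ep300 the 20 chaperones and modifiers (0.53 ± 0.19, 0.176). With the mitochondrial share as a covariate these values shrank or turned, to 0.34 for Dst, 0.00087 for Camk2a, -0.76 for Tubb4a, -0.35 for Sirt2 and -0.28 for Ep300, while Igbp1 was 0.97. With it 0 of 32 kinases had an unadjusted p under 0.05. The share did not overlap between genotypes in astrocyte libraries, so fits with this covariate cannot separate it from genotype. DESeq2 called Camk2a and Camk2b among kinases, Tubb4a among tubulins, and Dst, Map7d1, Mapre3, Stmn4 and Dclk1 among microtubule-associated proteins, 4 of these higher and Dclk1 lower. Of all genes tested in astrocyte libraries, DESeq2 called 2.33%. In edgeR, Camk2a, Dst and Tubb4a passed in the joint fit (adjusted p = 0.0128, 0.012 and 0.0167). They also passed with no filter on low counts (0.000125, 0.00366 and 0.000125). Camk2b and Dclk1 passed in both settings too, while Igbp1, Sirt2 and Ep300 passed in neither. Dst passed with DESeq2 size factors as well (0.0498). Over all genes, 295 of 18101 passed in the joint fit, 514 of 28707 with no filter and 31 of 14043 with DESeq2 size factors.

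In neuron libraries none of the lists held a gene past the threshold either, while 16 of 34 kinases, 11 of 28 phosphatase genes, 11 of 35 microtubule-associated proteins, 2 of 14 tubulins, 6 of 20 tubulin-modifying enzymes and 8 of 21 chaperones and modifiers had an unadjusted p under 0.05. The background share was 22.9%. Leaving out 1 library, the 6 counts ranged from 9 to 19, 7 to 14, 7 to 24, 2 to 4, 1 to 9 and 3 to 8. The low ends, tubulins aside, came without non-Tg replicate 3 or 4 or PS2APP replicate 3 or 5, and the 24 without non-Tg replicate 1. The smallest p in each list belonged to Dyrk1b (0.71 ± 0.19, edgeR adjusted p = 0.186), Ppp2r2a (-0.58 ± 0.17), Map4 (0.54 ± 0.15), Tubg1 (0.62 ± 0.18), Ttll1 (0.59 ± 0.23) and Usp14 (-0.64 ± 0.16), with adjusted p from 0.186 to 0.189. DESeq2 called Dyrk1b, Map4, Map6 and Usp14, and 0.89% of all genes tested in neuron libraries. Of 18101 genes tested, 0.0331% passed the neuron minus astrocyte, 0.105% the neuron minus myeloid and 0.757% the astrocyte minus myeloid interaction term. Among all lists, 1 gene passed any of these terms: Dclk1, a doublecortin-like kinase that binds microtubules. Dclk1 was singled out after its values were seen. Its PS2APP effect in astrocyte minus in myeloid libraries was -1.08 ± 0.24 (edgeR adjusted p = 0.0195), and all 20 fits that left out 1 library kept the call. Dclk1 in astrocyte libraries stood at 453, 649.9, 691, 611 and 744 CPM in non-Tg and at 456, 361, 375, 390.2 and 392 CPM in PS2APP mice. It stood at 22.6, 35.9, 41.4, 41.1 and 50.4 CPM in non-Tg and at 59.4, 62.8, 35.6, 45.2 and 50.4 CPM in PS2APP myeloid libraries.

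**Figure D5:**
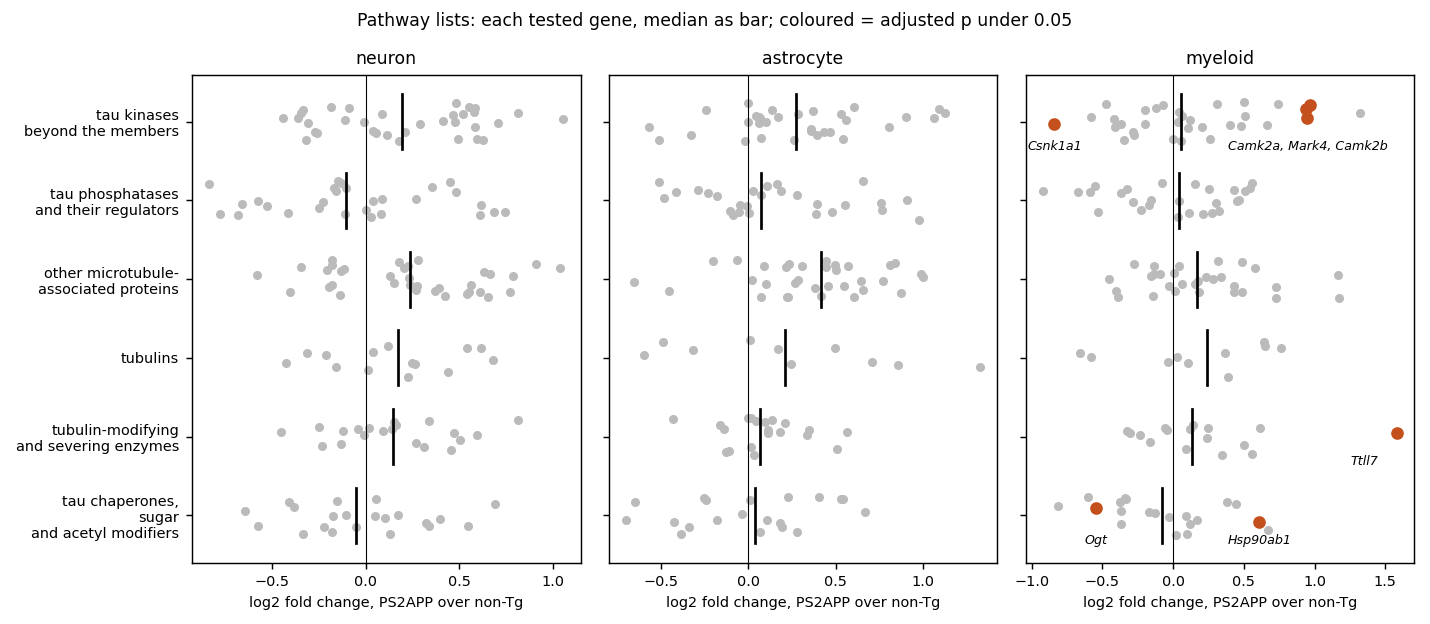
Log2 fold change, PS2APP over non-Tg (horizontal), of each tested gene of the 6 pathway lists (rows) in neuron, astrocyte and myeloid libraries (panels); vertical bars are list medians, and coloured, named points passed an adjusted p of 0.05 in edgeR. The 7 such points are all in the myeloid panel.

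The genes whose pattern was most like that of Mapt over the 30 libraries, by Pearson's r of log2 CPM among 8630 genes, were Srgap3 (r = 0.97), Rgs6 (0.97), Sptbn1 (0.97), Pxdn (0.96) and Gramd1b (0.96). Srgap3 had mean CPM of 484 in non-Tg neuron and 509.7 in non-Tg astrocyte libraries, so it shared the near-equal level in those populations. Among the other genes the closest were Peg3 for Map2 (0.99), Myt1l for Map1b (0.98), Wasf1 for Mark1 (0.98) and Chml for Cdk5r1 (0.95). Those of Dyrk1a (R3hcc1, 0.86), Gsk3b (Txndc12, 0.84) and Cdk5 (Rasl10b, 0.76) were less close. These r describe libraries that share populations, depth and scaling, and nothing was tested.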

How the data were processed

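Per the labels, RNA was extracted from sorted cell pellets, and per the submitters' processing notes reads were aligned with GSNAP to GRCm38. The aligner version, annotation, strand setting and counting rules are not stated by the sources used here. The authors deposited, per library, a count per gene, used for all tests, and a size-factor-adjusted RPKM, used only to compare levels between genes. Of 36528 Entrez identifiers, 31049 matched a symbol, and these held 96.7% of counts. Replicates were numbered in accession order. Counts were tested with edgeR 4.0.16 (R 4.3.3; TMM, filterByExpr, quasi-likelihood F test, Benjamini-Hochberg over all genes, adjusted p of 0.05), 5 against 5 libraries within a population, and in 1 fit of 30 libraries between populations and for interactions. SE is the absolute log2 fold change over the square root of F, and 95% intervals use the t quantile for the degrees of freedom of that fit. CPM shown use scaling over all 30 libraries, so their ratios differ from fitted fold changes by up to 0.0893 on the log2 scale. DESeq2 1.42.0 and the settings named in the closing section were alternatives. Correlations used log2 CPM with a prior count of 2, computed from the deposited counts. Tests on simulated data with 100 genes changed 2-fold and 100 changed 4-fold recovered 60 and 97 in neuron (16064 genes), 29 and 75 in astrocyte (14043) and 32 and 80 in myeloid libraries (12274). From each pathway list and population, up to 4 genes of smallest p past the threshold were named, or, with none, the 1 of smallest p. Likeness named the 5 genes of highest r with Mapt and 1 with each other gene. The 10 genes and the lists were chosen with earlier results of these data known. No 2 replicates were as alike as sampling noise alone would make them (lowest chi-square per degree of freedom 3.71). Some single-gene results named by these rules are not reported here.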

Additional observations from a re-analysis of the deposited data

Results flagged for a closer look

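A library stood apart from the other 4 of its group, by Dixon's test at the 95% level, for 6 of 60 combinations of gene and group. For independent, normally distributed values chance gives about 1 in 20. CPM need not have that shape, and the combinations share libraries, so no excess can be read from this count. All 6 were the highest value of their group. Map1b was 1798 CPM in non-Tg neuron replicate 1, with the next library at 957.7 CPM. Map1b was also 631.1 CPM in PS2APP astrocyte replicate 3, with the next at 270.6 CPM, and that library had the neuron marker sum of 1646 CPM. Non-Tg astrocyte replicate 1 held Gsk3a at 106.8 CPM, with the next at 54.9 CPM, and Cdk5 at 36.48 CPM, with the next at 20.49 CPM. Mark1 was 9.595 CPM in PS2APP myeloid replicate 4, with the next at 4.243 CPM. Fyn was 85.54 CPM in non-Tg astrocyte replicate 2, with the next at 58.2 CPM.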

How the results depend on the processing

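No paired analysis was possible because the labels carry no replicate numbers. The labels do not tie libraries to animals, and the depth limits low genes such as Mark1 in myeloid libraries. Where a value below differs, the cause was not tested.

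With no filter on low counts, genes called between PS2APP and non-Tg went from 1 to 15 in neuron, 26 to 514 in astrocyte (1 of the 10 genes) and 412 to 939 in myeloid libraries, and from 137 to 213 for the astrocyte minus myeloid interaction. DESeq2 called 143, 327 and 887 (1 of the 10 in myeloid libraries), and 16, 85 and 382 for the interactions against 6, 19 and 137. The covariate of other cells' markers gave 4, 11 and 26, and the mitochondrial covariate 2 in astrocyte and 26 in myeloid libraries. The joint fit gave 5, 295 (83.7% higher, against 100%) and 798 (38.7% higher, against 55.3%; 1 of the 10). Leaving out 1 library gave 1 to 11 genes in neuron (11 without PS2APP replicate 5), 8 to 125 in astrocyte (125 without non-Tg replicate 1) and 105 to 652 in myeloid libraries, with 0 to 1 of the 10 in myeloid libraries, and 1 to 11, 12 to 27 and 103 to 176 for the interactions.

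DESeq2 size factors shifted the median of all genes by 0.229 for neuron minus myeloid, 0.169 for astrocyte minus myeloid, and -0.141 and -0.133 for their interactions. Under them 47.4% of the astrocyte minus myeloid interaction calls were higher, against 61.3%.

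The following values changed sign. Mark1 in neuron libraries was 0.012 with DESeq2 size factors, 0.012 in DESeq2 and 0.0066 in the joint fit. In astrocyte libraries the mitochondrial covariate gave Map2 -0.24, Map1b -0.63, Gsk3a -0.51, Gsk3b 0.18, Cdk5 -0.17, Mark1 0.34 and Dyrk1a -0.51, and the neuron marker covariate Gsk3b 0.029 and Dyrk1a -0.058. In myeloid libraries the mitochondrial covariate gave Map1b -0.11. Between PS2APP groups, neuron minus astrocyte was -0.017 for Mapt and -0.30 for Cdk5, and astrocyte minus myeloid 0.49 for Gsk3b, 0.44 for Cdk5 and -0.29 for Dyrk1a. Astrocyte minus myeloid in non-Tg mice was 0.12 for Gsk3b and 0.14 for Cdk5 with DESeq2 size factors and in DESeq2, and 0.017 and 0.052 with no filter. The Gsk3a interactions were -0.0035, -0.059 and -0.056 with DESeq2 size factors and -0.0038, -0.060 and -0.056 in DESeq2.

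Leaving out 1 library, the PS2APP value ranged from -0.095 to 0.076 for Mark1 in neuron libraries, and in astrocyte libraries from -0.35 to 0.10 for Mark1, -0.0073 to 0.20 for Dyrk1a and -0.012 to 0.21 for Fyn. The neuron minus astrocyte interaction ranged from -0.51 to 0.18 for Map1b, -0.31 to 0.22 for Gsk3a, -0.083 to 0.36 for Mark1 and -0.027 to 0.20 for Fyn. Neuron minus myeloid ranged from -0.056 to 0.32 for Gsk3a and -0.39 to 0.084 for Cdk5, and astrocyte minus myeloid from -0.29 to 0.065 for Mapt and -0.14 to 0.38 for Gsk3a. The astrocyte to myeloid contrast in non-Tg mice ranged from -0.16 to 0.059 for Gsk3b, -0.24 to 0.23 for Cdk5 and -0.013 to 0.19 for Dyrk1a.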
